A study of Homo sapiens with 8 samples.

Results

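Expression was compared between SUM159 trailblazer cells with an induced ΔNP63α-V5 vector and the same cells with an empty vector, both given doxycycline. The 2 arrays titled SUM159T-P63-V5_+dox_d5 were set against the 2 titled SUM159T-WT_+dox_d5, which are 4 of the 8 arrays of the series. The comparison covers the 12385 named genes that lay above background in at least 1 group, out of 47304 probes. The arrays without doxycycline entered it only through the filter on background, the choice of probe and the shared estimate of spread. SUM159 is an established human breast cancer line of mesenchymal character, and trailblazer cells are its highly invasive subpopulation that leads groups of cells into matrix. All 4 groups carried a pLIX lentiviral vector, which expresses its insert when doxycycline is present. Induced ΔNP63α-V5 cells held the vector encoding V5-tagged ΔNP63α and received 1 ug/ml doxycycline for 5 days, and doxycycline-treated empty-vector cells received the same dose for the same 5 days. The uninduced ΔNP63α-V5 cells and the untreated empty-vector cells were the same lines at 5 days without the drug, with 2 arrays each. Each vector was represented by 1 line, so an effect of the expressed protein and a difference between the 2 lines cannot be told apart in the comparison with doxycycline alone. Nothing in the labels says that the replicates came from different cultures, and the p-values below therefore reflect variation among these arrays that may be technical.

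The gene TP63 makes 2 families of p63 protein, and ΔNP63α is the isoform without the long amino-terminal activation domain that predominates in basal cells of stratified and glandular epithelia. It binds DNA as a tetramer, like its relative p53, and is known for sustaining the adhesion of basal cells to the basement membrane through integrins and laminins and for holding back mesenchymal genes. In breast tissue it marks the basal or myoepithelial layer. Levels of TP63 itself were not analysed here, so the labels of induction were not checked against the induced gene.

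With doxycycline in both lines, the induced ΔNP63α-V5 cells had more RNA for laminin and collagen receptors, for interleukin-1 and acute-phase proteins and for cholesterol exporters. They had less RNA for the secreted matrix-signalling proteins CCN1 and CCN2, for other targets of the YAP and TEAD transcription factors, for many mesenchymal matrix and cytoskeletal genes and for DNA replication genes. Of the 12385 genes, 1206 (9.74%) passed an adjusted p of 0.05 in limma, 575 of them higher (4.64%) and 631 lower (5.09%). Differences were mostly small: 43 rises and 67 falls exceeded 2-fold, and the median size of a called difference was 0.55 on the log2 scale, against a median SE of 0.116. The 2 arrays of one group lay wholly above the 2 of the other for 6477 genes (52.3%), which is the share against which the separations reported below are to be read. Single arrays carried much of the count, since 407 genes were called without induced ΔNP63α-V5 replicate 2 and 387 without doxycycline-treated empty-vector replicate 2.

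**Figure D1:**
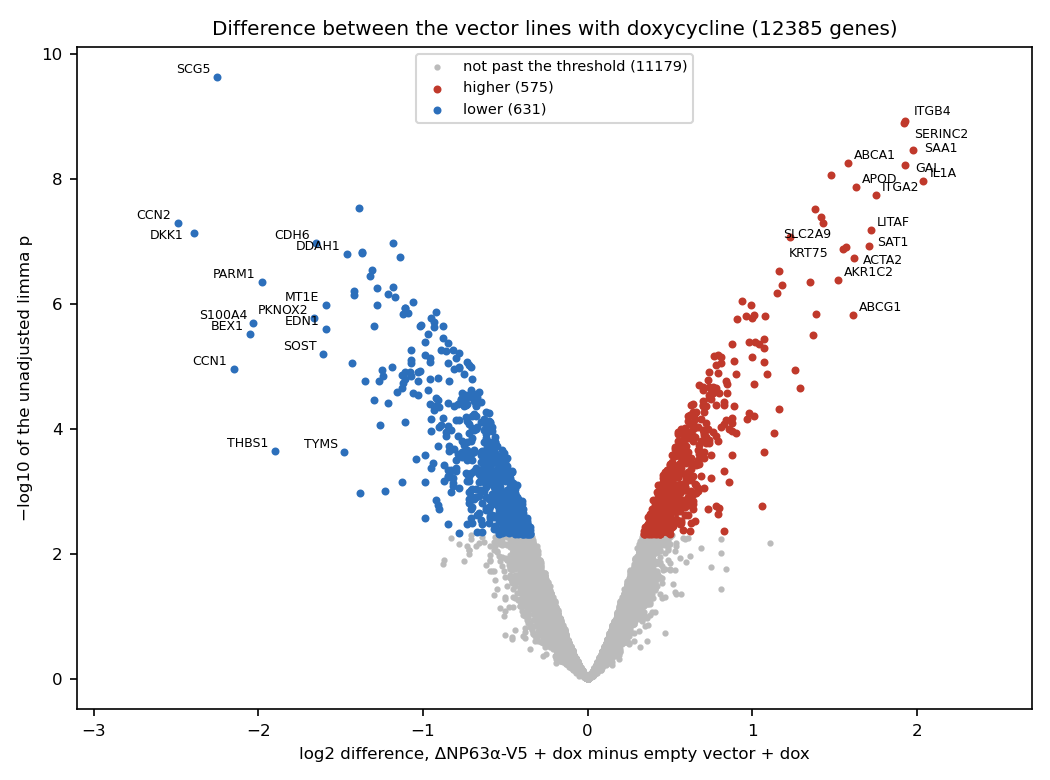
Log2 difference of each of the 12385 genes (horizontal axis, induced ΔNP63α-V5 minus doxycycline-treated empty-vector cells) against −log10 of its unadjusted limma p (vertical axis), with 1 point per gene and the 15 largest rises and falls named. The 575 higher genes are at the right and the 631 lower genes at the left, and the falls of CCN2 (-2.49) and DKK1 (-2.39) exceeded the rise of IL1A (2.04) in size.

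Spearman correlations were taken over the 23086 probes above background in at least 1 group, named or not. Arrays of the same group had 0.97 in induced ΔNP63α-V5 cells and 0.974 in doxycycline-treated empty-vector cells, and pairs across these groups had 0.954 to 0.965. All 8 genes fixed as markers of the SUM159 line, among them VIM, CD44 and CAV1, were above background on all 8 arrays. Of these 8 genes 6 fell and 0 rose with doxycycline, with a median of -0.59, and without doxycycline-treated empty-vector replicate 2 there were 2 falls. Their summed intensity was 33190 to 33360 in induced ΔNP63α-V5 cells and 47750 to 49490 in doxycycline-treated empty-vector cells. Among markers of other cells, 3 of 8 luminal genes (PGR, KRT19 and CDH1), 1 of 7 blood genes (PTPRC), 5 of 6 endothelial genes, 2 of 8 fibroblast genes (LUM and THY1) and 4 of 6 melanocyte or neural genes were below background on all 8 arrays. Above background on all 8 were 2 luminal, 4 blood, 0 endothelial, 3 fibroblast and 2 melanocyte or neural genes. Summed intensities in induced ΔNP63α-V5 cells, against doxycycline-treated empty-vector cells, were 905.8 to 907.4, against 904.7 to 918.6, for the luminal list and 1210 to 1451, against 1199 to 1254, for the blood list. They were 629 to 650.8, against 626.5 to 629.6, for the endothelial list and 791.6 to 817.9, against 906.5 to 934.4, for the melanocyte and neural list. In bulk RNA, fewer cells with a transcript and less of it per cell cannot be told apart. A log2 value here is an intensity after background correction plus an offset of 50, which understates the change of dim genes, and levels of different probes are not comparable.

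Adhesion receptors for the basement membrane were among the largest rises. ITGB4, the β4 integrin that joins laminin to keratin filaments in hemidesmosomes (ILMN_2334210), had log2 intensities of 7.97 and 8.12 in induced ΔNP63α-V5 cells, against 6.20 and 6.03 in doxycycline-treated empty-vector cells, a log2 difference of 1.93 ± 0.11 (SE), or 3.81-fold higher (limma adjusted p = 5.28e-06). In the empty-vector cells 1 of 2 arrays was above background for this probe, and a second, dimmer ITGB4 probe read 1.11. ITGA2, the α2 subunit of a collagen receptor, had 10.70 and 10.49 in the induced cells, against 8.86 and 8.84 in the empty-vector cells, a difference of 1.75 ± 0.13 (adjusted p = 2.25e-05). ITGA3, the α3 subunit of a laminin receptor, had 11.78 and 11.75, against 10.49 and 10.35 in the empty-vector cells, a difference of 1.35 ± 0.13 (adjusted p = 0.000165), while a dim probe of the gene read 0.33. For these 3 subunits both induced arrays lay above both empty-vector arrays, which their choice on these same arrays made likely.

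ITGA6, the α6 subunit that pairs with β4, rose less, with 7.21 and 7.35 in the induced cells and 6.75 and 6.76 in the empty-vector cells (0.52 ± 0.11, adjusted p = 0.013). It was not called without induced ΔNP63α-V5 replicate 2 (0.45) or without doxycycline-treated empty-vector replicate 2 (0.52). Of 12 tested hemidesmosome and laminin genes 3 rose, 0 fell and 9 did not pass (25% called, beside 9.74% of all genes). The list median was 0.20, beside 0.00 over all genes. The members that did not pass include the β1 integrin ITGB1 (-0.09), plectin, PLEC (0.18), the laminin chain LAMB3 (0.23) and the laminin chain LAMA5 (0.62). Among 13 other integrin subunits ITGA2 alone rose and none fell, a called share of 7.69%, beside 9.74% of all genes. ITGA5, the fibronectin receptor subunit, read 0.36, ITGAV 0.26 and ITGA11 -0.33. In the hemidesmosome and laminin list the 3 genes that rose, ITGB4, ITGA3 and ITGA6, were integrin subunits.

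Reported targets of p63 gave rises and no falls in the main fit. Of 24 tested genes that other work lists as activated by p63, 8 rose and 16 did not pass, with a median of 0.12. The called share was 33.3%, beside 9.74% of all genes, and 4 of the 8 rises are the integrins above. With an offset of 16 in the background correction, a stricter background level or an intensity trend, the list had 1 fall. S100A2, a calcium-binding protein of basal keratinocytes, had 8.49 and 7.91 in induced ΔNP63α-V5 cells, against 6.92 and 6.91 in doxycycline-treated empty-vector cells (1.29 ± 0.19, adjusted p = 0.00192). SERPINB5 (maspin, a serpin of myoepithelial cells) had 8.18 and 8.31, against 7.71 and 7.72 in the empty-vector cells, a difference of 0.53 ± 0.10 that was not called without induced replicate 2 (0.46). CSTA, the protease inhibitor cystatin A of the epidermis, rose by 0.61 and was not called without empty-vector replicate 2 (0.55). The transcription factor HBP1 rose by 0.73, and its call was lost without induced replicate 1 (0.40), without empty-vector replicate 2 (0.62) and, at an unmoved 0.73, without either untreated empty-vector array. Without doxycycline-treated empty-vector replicate 2 the list had 5 rises.

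Few genes of the squamous programme were measurable. Of 40 listed basal and differentiating keratinocyte genes 35 had a named probe and 15 passed the filter. Of these 15, 4 rose (KRT75, S100A2, CSTA and SERPINB5), 0 fell and 11 did not pass. That is a called share of 26.7%, beside 9.74% of all genes. KRT75, a keratin of the hair follicle, had 7.84 and 8.30 in induced ΔNP63α-V5 cells, against 6.53 and 6.53 in doxycycline-treated empty-vector cells (1.55 ± 0.14, adjusted p = 7.1e-05). KRT14, the basal keratin, and KRT16, a keratin of stressed epidermis, were above background on both induced arrays and below it on both empty-vector arrays, and neither passed. KRT5, S100A7, S100A8, FLG, DSG3 and SPRR3 were below background on all 8 arrays, the induced ones included.

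Of the 34 classical epithelial genes listed, 31 had a probe and 11 passed the filter, with 0 rises, 1 fall and 10 that did not pass (median -0.09). The called share of 9.09% was near the 9.74% over all genes. The fall was KRT8, a simple-epithelial keratin, at 8.42 and 8.73 in induced cells and 9.11 and 9.31 in empty-vector cells (-0.64 ± 0.13), a call lost without induced replicate 1 (-0.48) or empty-vector replicate 2 (-0.54). Its partner KRT18 read 0.37 and CLDN1, a tight-junction protein, -0.51, neither of which passed. CDH1 (E-cadherin), ESRP2, GRHL2, OVOL2, CLDN7 and CRB3 were below background on all 8 arrays. The desmosome list had a called share of 12.5%, beside the 9.74% over all genes. Of 8 desmosome genes DSG2, a desmosomal cadherin, rose (0.52 ± 0.10), although not without empty-vector replicate 2 (0.49), while DSP read 0.03 and JUP 0.38 without passing.

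The inflammatory genes moved in both directions. IL1A, which encodes the cytokine interleukin-1α (ILMN_1658483), had the largest rise of all, with 9.07 and 9.41 in induced ΔNP63α-V5 cells, against 7.27 and 7.12 in doxycycline-treated empty-vector cells, a difference of 2.04 ± 0.14, or 4.12-fold higher (adjusted p = 1.71e-05). SAA1, an acute-phase apolipoprotein, had 9.10 and 8.91, against 6.96 and 7.10 in the empty-vector cells (1.98 ± 0.12, adjusted p = 1.08e-05), and further SAA1 probes read 1.42 and 0.23. SAA1 and SAA2 are near-identical, so their probes may not separate them. IL1B, interleukin-1β, had 6.98 and 7.60 in induced cells, against 5.96 and 6.10 in the empty-vector cells. It was below background on both empty-vector arrays, so that it was at least 2.24-fold higher. IL1B passed the filter on background only through the induced arrays, which made a rise likely. SOD2, the mitochondrial superoxide dismutase that NF-κB induces, rose by 0.79 ± 0.10, and 2 other probes read 0.88 and 0.04.

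The whole IL-1 and NF-κB list had 38 tested genes, with 6 rises, 3 falls, 29 that did not pass and a median of -0.03. Its called share was 23.7%, beside 9.74% of all genes. The falls included IL6, the cytokine interleukin-6, with 6.71 and 7.0 in induced cells and 7.44 and 7.78 in empty-vector cells (-0.76 ± 0.14, adjusted p = 0.00842). That call was lost without empty-vector replicate 2 (-0.59). IER3, an early-response survival gene, fell by 0.68 on the log2 scale, with 11.83 and 11.85 in induced cells and 12.47 and 12.57 in empty-vector cells. The chemokine CXCL8 (-0.46), the NF-κB inhibitors NFKBIA (-0.22) and TNFAIP3 (-0.14) and the NF-κB subunit NFKB1 (0.14) did not pass. Falls in the list numbered 1 without empty-vector replicate 2. The 6 rises were IL1A, IL1B, SAA1, SAA2, SOD2 and the inhibitor NFKBIB (0.60, not called without induced replicate 2 at 0.46 or empty-vector replicate 2 at 0.52). SAA2 (0.42) was below background on both empty-vector arrays and lost its call without induced replicate 1 (0.49) or 2 (0.34), doxycycline-treated empty-vector replicate 1 (0.30) or 2 (0.54), or either untreated empty-vector array (0.42).

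Every target of YAP and TEAD that passed the test was lower in the induced cells. YAP is a coactivator that responds to cell shape and matrix stiffness and acts through the TEAD DNA-binding factors, and CCN1, CCN2 and ANKRD1 are its best-known readouts. Of 26 tested targets 12 fell, 0 rose and 14 did not pass (46.2% called, beside 9.74% of all genes). The median was -0.45, beside 0.00 over all genes. The count was 5 without induced ΔNP63α-V5 replicate 2 and 7 without doxycycline-treated empty-vector replicate 2, with medians of -0.36 and -0.41. CCN2, a matricellular growth factor formerly called CTGF, had 8.45 and 8.19 in induced cells, against 10.44 and 11.17 in empty-vector cells, a difference of -2.49 ± 0.20 or 5.62-fold lower (adjusted p = 4.26e-05), and a second probe read -1.78. CCN1, its relative formerly called CYR61, had 9.04 and 7.99, against 10.80 and 10.54 in the empty-vector cells (-2.15 ± 0.29, adjusted p = 0.00123). The 2 induced arrays differed from each other in CCN1 by more than the 2 empty-vector arrays did, yet both lay below them.

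F3, the tissue factor that starts coagulation, had 7.20 and 7.30 in induced cells, against 8.27 and 8.15 in empty-vector cells (-0.96 ± 0.13, adjusted p = 0.00108). CRIM1, a BMP-binding transmembrane protein, fell by 0.78, and MYOF, a membrane-repair protein whose other probes read -0.29 and -0.41, by 0.65. ANKRD1, a muscle and stress ankyrin-repeat protein, was dim, with 6.21 and 6.17 in induced cells and 6.64 and 6.88 in empty-vector cells (-0.57 ± 0.11, adjusted p = 0.0101), and it was not called without induced replicate 2 (-0.54) or empty-vector replicate 2 (-0.45). The factor TEAD4 (-0.39), TEAD1 (-0.26), the kinase LATS2 (-0.13) and AMOTL2 (-0.02) did not pass.

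Since these targets moved together, the 250 bases before the start of their genes were searched, on both strands, for GGAATG, the core letters of the TEAD motif. The promoters came from RefSeq in the GRCh38.p14 build, which held an entry for 16 of the 26 tested targets. The letters occurred in 6 of these 16 (37.5%), against 941 of the 9851 tested genes with an entry (9.55%). They occurred in 11.9% of all 27305 promoters in the table. The list was made of known targets, so a high share was built in and says nothing about these arrays. The share was also 37.5% among the 8 targets that fell and had an entry. Of all called genes with an entry, the letters occurred in 11.4% of those that fell and 6.90% of those that rose. Among the 8 targets that fell and had an entry, CCN2 held 3 matches, ANKRD1 held 2 and TGFB2 held 1, and the remaining 5 held none. The promoters of CCN2 and ANKRD1 are shown because they carry more than 1 match. CCN2 is shown from chr6:131951373-131951622 and ANKRD1 from chr10:90921088-90921337, both on the minus strand and read 5′ to 3′ toward the gene, with the matches in capitals.
CCN2: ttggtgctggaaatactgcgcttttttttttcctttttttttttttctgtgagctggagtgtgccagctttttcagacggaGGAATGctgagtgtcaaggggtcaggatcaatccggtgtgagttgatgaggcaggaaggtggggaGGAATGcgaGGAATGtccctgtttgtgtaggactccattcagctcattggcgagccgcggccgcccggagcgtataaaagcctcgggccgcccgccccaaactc
ANKRD1: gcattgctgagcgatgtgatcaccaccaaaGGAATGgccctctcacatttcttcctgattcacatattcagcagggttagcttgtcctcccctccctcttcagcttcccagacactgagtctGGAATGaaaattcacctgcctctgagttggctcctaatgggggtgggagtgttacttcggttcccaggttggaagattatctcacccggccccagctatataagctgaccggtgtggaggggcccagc
In CCN2 the matches begin 169, 104 and 95 bases before the gene's start, and in ANKRD1 they begin 220 and 128 bases before it. A match is only a run of letters and was not tested as a binding site. The p53-family half-site was looked for in the same windows and was absent from the 5 p63 targets that rose and had an entry, while it occurred in 6.90% of the promoters of all called rises and 4.64% of those of tested genes.

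**Figure D2:**
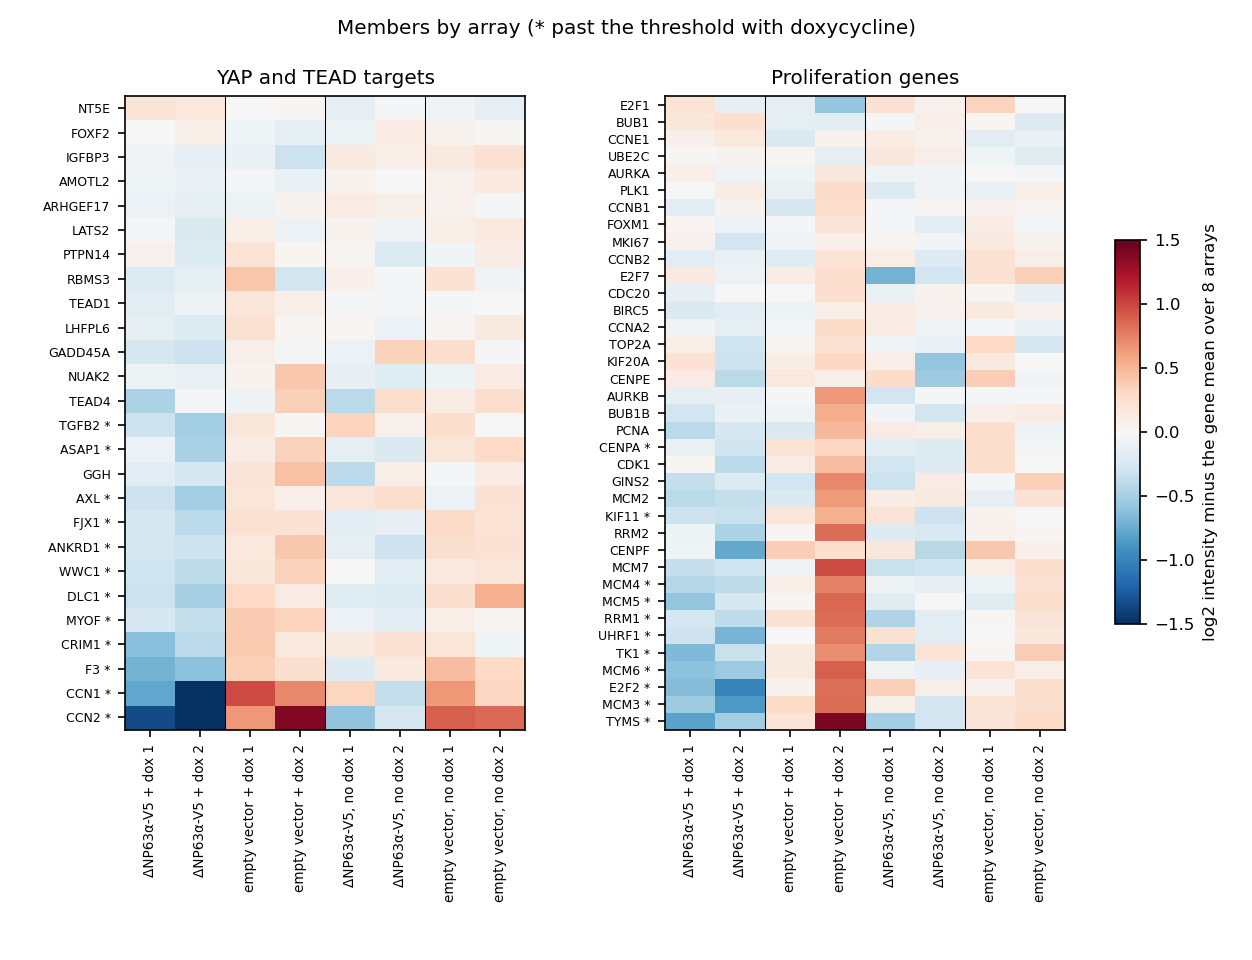
Log2 intensity of each YAP and TEAD target (left) and each proliferation gene (right) on the 8 arrays, minus the gene's mean over the 8, with the groups separated by lines and the colour scale ending at 1.5 in both directions. Members are ordered by their difference with doxycycline, an asterisk marks those past the threshold, CCN2 and CCN1 are the lowest YAP and TEAD targets on both induced arrays, and doxycycline-treated empty-vector replicate 2 stands above the other 7 arrays for MCM7, RRM2 and TYMS.

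Matricellular proteins are secreted into the matrix and signal to cells, and CCN1 and CCN2 belong to them. Of 29 tested 12 fell, 1 rose and 16 did not pass (44.8% called, beside 9.74% of all genes), with a median of -0.33. Without induced replicate 2 there were 7 falls and without empty-vector replicate 2 there were 8. FSTL1, a follistatin-like glycoprotein, had 8.25 and 8.19 in induced ΔNP63α-V5 cells, against 9.66 and 9.57 in doxycycline-treated empty-vector cells (-1.39 ± 0.11, adjusted p = 3.15e-05). CCN4, a Wnt-responsive member of the CCN family, had 7.37 and 7.40, against 8.71 and 8.69 in the empty-vector cells (-1.31 ± 0.12), with a dimmer probe at -0.59. THBS1, thrombospondin-1, had 9.51 and 8.59 in induced cells and 11.01 and 10.89 in empty-vector cells, a difference of -1.90 ± 0.36 (adjusted p = 0.0084) that was not called without induced replicate 2 (-1.44). EFEMP1, fibulin-3, fell by 1.12, TGFBI by 0.93 and SPARC by 0.75. TNC, tenascin-C, was the single rise, with 10.35 and 10.28 in induced cells and 9.78 and 9.65 in empty-vector cells (0.60 ± 0.11, and 0.53 without a call when empty-vector replicate 2 was left out). Fibronectin, FN1, read -0.87 and did not pass.

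Collagen genes moved in both directions. Of 19 tested collagen genes 5 fell, 2 rose and 12 did not pass, with a median of -0.27. Called were 36.8%, beside 9.74% of all genes. The list had 1 fall without induced replicate 2 or without empty-vector replicate 1. COL3A1, a fibrillar collagen, had 6.28 and 6.02 in induced ΔNP63α-V5 cells, against 7.19 and 7.33 in doxycycline-treated empty-vector cells (-1.11 ± 0.12, adjusted p = 0.0003). It was above background on 1 of 2 induced arrays, and an offset of 16 in the background correction gave -1.70. COL1A1 had 10.01 and 8.90 in the induced cells, against 10.86 and 10.80 in the empty-vector cells (-1.38 ± 0.32, adjusted p = 0.0196). Its call was lost without induced replicate 2 (-0.82), empty-vector replicate 1 (-1.35) or empty-vector replicate 2 (-1.41), and COL1A2, its partner chain, read 0.11. The 2 rises were the type IV collagen chains COL4A6 (0.52) and COL4A5 (0.47), neither of which was called without empty-vector replicate 1 (0.52 and 0.42) or replicate 2 (0.51 and 0.53). COL4A6 was also lost without induced replicate 1 (0.35) and COL4A5 without induced replicate 2 (0.44). The other type IV chain tested, COL4A1, read -0.45, and the anchoring-fibril collagen COL7A1 read 0.84, without passing.

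The mesenchymal state list fell in part. Of 32 tested genes 13 fell, 2 rose and 17 did not pass (46.9% called, beside 9.74% of all genes), with a median of -0.41. The falls numbered 5 without induced replicate 2, 8 without empty-vector replicate 1 and 7 without empty-vector replicate 2, while the median stayed between -0.41 and -0.38. Beside it, the fibroblast marker list, which shares COL1A1, COL3A1 and DCN with it, had 3 falls and 0 rises among 5 tested (median -0.52), and its part in the result was not tested. The summed intensity of that list was 1628 to 2321 in induced cells and 3011 to 3080 in empty-vector cells, and it had 1 fall without induced replicate 2 or empty-vector replicate 2. S100A4, a calcium-binding protein of motile mesenchymal cells, had 11.07 and 10.20 in induced ΔNP63α-V5 cells, against 12.49 and 12.84 in doxycycline-treated empty-vector cells, 4.09-fold lower (-2.03 ± 0.23, adjusted p = 0.000398), and a second probe read -1.74. PDGFRB, the β receptor for platelet-derived growth factor, had 7.53 and 7.55, against 8.23 and 8.27 in the empty-vector cells (-0.71 ± 0.10, adjusted p = 0.00119). Vimentin, VIM, the intermediate filament of mesenchymal cells, had 13.66 and 13.64 in induced cells and 14.06 and 14.05 in empty-vector cells (-0.40 ± 0.10). VIM lost its call without any one of the 4 doxycycline arrays, at values of -0.41, -0.39, -0.39 and -0.41.

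Of the transcription factors of the epithelial-mesenchymal transition 16.7% were called, beside 9.74% of all genes. Of 18 tested 3 fell, 0 rose and 15 did not pass, with a median of -0.19, and 1 fell without induced replicate 2. PRRX2, a homeobox factor of mesenchyme, fell, with 7.22 and 7.19 in induced cells and 8.03 and 8.50 in empty-vector cells (-1.06 ± 0.16, adjusted p = 0.00214). FOSL1, an AP-1 subunit, fell by 0.63, and not without induced replicate 2 (-0.62). ZEB1 (-0.17), ZEB2 (-0.03), SNAI2 (-0.32), TWIST1 (-0.55) and PRRX1 (0.24) did not pass. Among 6 tested cadherins CDH6, a mesenchymal and kidney cadherin, had 8.89 and 8.58 in induced cells and 10.23 and 10.55 in empty-vector cells (-1.65 ± 0.14, adjusted p = 6.71e-05, with a dim probe at -0.22). CDH18 fell by 1.12, and CDH2, N-cadherin, by 0.50, a call lost without induced replicate 2 (-0.45) or empty-vector replicate 1 (-0.41).

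Some actin-binding genes were lower and smooth muscle actin was higher. Of 16 tested contractile genes 5 fell, 1 rose and 10 did not pass, with a median of -0.33. Called were 37.5%, beside 9.74% of all genes. There were 3 falls without induced replicate 2 or empty-vector replicate 2. TPM1, a tropomyosin, had 10.45 and 9.95 in induced ΔNP63α-V5 cells, against 11.47 and 11.20 in doxycycline-treated empty-vector cells (-1.13 ± 0.17, adjusted p = 0.00192), and its other probes read -1.22, -0.31 and -0.37. CNN3, an acidic calponin, fell by 0.95 ± 0.11, and TAGLN, transgelin, by 0.85 ± 0.13. ACTA2, smooth muscle α-actin, which both myofibroblasts and myoepithelial cells make, had 9.67 and 10.15 in induced cells, against 8.41 and 8.18 in empty-vector cells (1.62 ± 0.15, adjusted p = 8.09e-05). For TPM1 and ACTA2 the 2 groups of arrays did not overlap, which their choice on these same arrays made likely.

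Genes that earlier work tied to trailblazer invasion were lower where they changed. Of 8 tested 4 fell, 0 rose and 4 did not pass (50% called, beside 9.74% of all genes), with a median of -0.51. LPAR1, a lysophosphatidic acid receptor, had 6.57 and 6.45 in induced ΔNP63α-V5 cells, against 7.33 and 7.51 in doxycycline-treated empty-vector cells (-0.91 ± 0.13, adjusted p = 0.0015). PLPP3, a lipid phosphatase, fell by 0.69 (7.91 and 8.11 in induced cells, 8.74 and 8.67 in empty-vector cells), with a dimmer probe at -0.16. DAB2, an endocytic adaptor, fell by 0.70. It was not called without induced replicate 2 (-0.53), empty-vector replicate 1 (-0.39) or either untreated empty-vector array (-0.70), and its second probe read -0.98. Without induced replicate 2 the list had 2 falls and 1 rise.

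**Figure D3:**
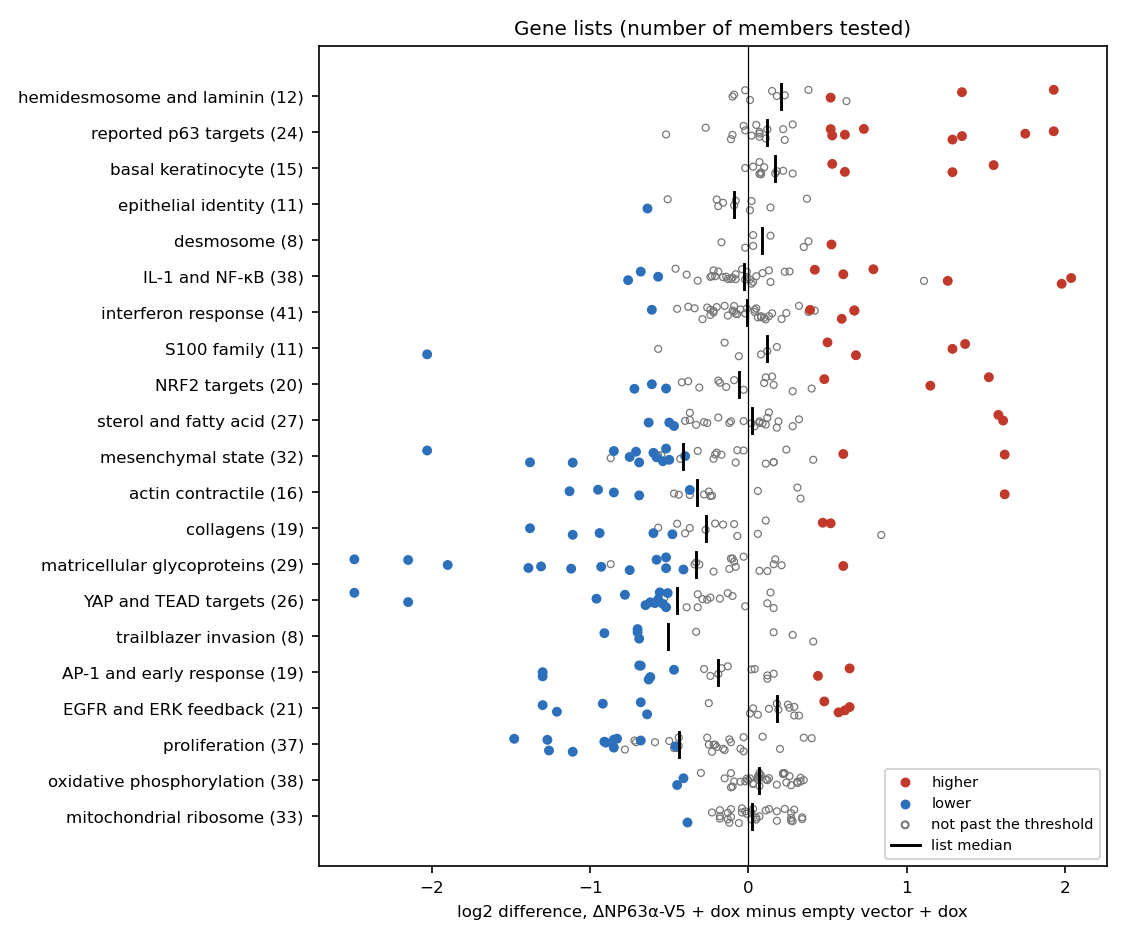
Log2 difference (horizontal axis, induced ΔNP63α-V5 minus doxycycline-treated empty-vector cells) of every tested member of 21 gene lists (vertical axis, with the number tested), red where higher, blue where lower and open where the threshold was not passed, with a black bar at the list median. The YAP and TEAD list (median -0.45) and the proliferation list (-0.44) hold called members below 0 alone, whereas the reported p63 targets hold called members above 0 alone.

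Secreted signals and their receptors showed some of the largest single differences. DKK1, a secreted Wnt antagonist, had 7.84 and 7.37 in induced ΔNP63α-V5 cells, against 9.67 and 10.33 in doxycycline-treated empty-vector cells (-2.39 ± 0.20, adjusted p = 5.33e-05), although a dim probe read -0.22. SCG5, a chaperone of neuroendocrine prohormone processing, had 8.57 and 8.37, against 10.71 and 10.74 in the empty-vector cells, 4.77-fold lower (-2.25 ± 0.11, adjusted p = 2.92e-06). EDN1, the peptide endothelin-1, had 7.62 and 7.27, against 8.88 and 9.19 in the empty-vector cells (-1.59 ± 0.19), and SOST, the Wnt antagonist sclerostin, fell by 1.61 with a dim probe at -0.32. GAL, the neuropeptide galanin, went the other way, with 8.97 and 8.62 in induced cells, against 6.90 and 6.83 in empty-vector cells (1.93 ± 0.13, adjusted p = 1.26e-05). The groups of arrays stood apart for all 5 genes, which their choice on these same arrays made likely, and did so for 52.3% of all genes.

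Ligands of the EGF receptor family split. NRG1, neuregulin-1, had 8.03 and 7.86 in induced cells, against 9.0 and 9.31 in empty-vector cells (-1.21 ± 0.12, adjusted p = 0.000215), with other probes at -1.84 and -0.34. HBEGF, a heparin-binding ligand, had 9.18 and 9.17, against 10.05 and 10.13 in the empty-vector cells (-0.92 ± 0.10, adjusted p = 0.000339). EREG, epiregulin, had 7.43 and 7.63 in induced cells, against 6.92 and 6.86 in empty-vector cells (0.64 ± 0.15), and TGFA had 6.67 and 6.73, against 6.04 and 6.23 (0.57 ± 0.11) in the empty-vector cells, where 1 of 2 arrays was above background. Without induced replicate 2 neither was called (0.54 each), nor was either without empty-vector replicate 1 (0.67 for EREG, 0.47 for TGFA), and EREG was also lost without empty-vector replicate 2 (0.61). The receptor gene EGFR read 0.26 and did not pass. In the list of EGFR signalling and ERK feedback 42.9% were called, beside 9.74% of all genes. Of 21 tested genes of EGFR signalling and ERK feedback 4 rose, 5 fell and 12 did not pass, with 0 rises without induced replicate 2 or empty-vector replicate 1 and 2 without empty-vector replicate 2.

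Early-response transcription factors were lower where they changed most. EGR1, a zinc-finger factor induced by growth signals, had 8.41 and 8.08 in induced ΔNP63α-V5 cells, against 9.57 and 9.52 in doxycycline-treated empty-vector cells (-1.30 ± 0.20, adjusted p = 0.00252). KLF2, a Krüppel-like factor that responds to mechanical stress, had 8.53 and 8.20, against 9.48 and 9.85 in the empty-vector cells (-1.30 ± 0.15, adjusted p = 0.000421). Of 19 tested AP-1 and early-response genes 7 fell, 2 rose and 10 did not pass (47.4% called, beside 9.74% of all genes). The falls numbered 3 without induced replicate 2 and 4 without empty-vector replicate 2, and the 2 rises, FOSB (0.44) and HSPA1B (0.64), were lost without any one of the 4 doxycycline arrays (0.42 to 0.45 for FOSB, 0.55 to 0.74 for HSPA1B). JUN (-0.24), JUNB (0.12) and MYC (-0.28) did not pass.

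Other signalling lists were mixed. Of 22 TGF-β response genes 4 fell and 0 rose (18.2% called, beside 9.74% of all genes) (CCN2, TGFBI, TAGLN and TGFB2), and SMAD7, the pathway's own feedback inhibitor, read -0.30 without passing. Among 15 BMP genes the inhibitory SMAD6 fell by 0.73, SMAD5 fell by 0.59, and ID1, a direct BMP target, rose by 1.07 on its brighter probe and 0.07 on a dim one, and was not called without induced replicate 2 (0.84). TGFB2 fell by 0.51 and was not called without induced replicate 2 (-0.40) or empty-vector replicates 1 (-0.43) or 2 (-0.58). In the Notch list of 16, HES1, a direct Notch target, had 7.76 and 7.92 in induced cells, against 7.25 and 7.15 in empty-vector cells (0.64 ± 0.11, adjusted p = 0.0047), while LFNG, a glycosyltransferase that modifies Notch, fell by 0.58 (not called without induced replicate 2 at -0.37 or empty-vector replicate 2 at -0.42) and the ligands JAG1 (0.22) and JAG2 (0.07) did not pass. The Notch list had a called share of 12.5%, beside the 9.74% over all genes. Of 24 growth factors and receptors 5 fell, 2 rose and 17 did not pass, a called share of 29.2%. The falls numbered 2 without induced replicate 2 and 3 without any one of the other doxycycline arrays. The collagen receptor kinase DDR2 fell by 0.85 ± 0.10 and FGF2 by 0.76 ± 0.15, but FGF2 not without induced replicate 2 (-0.66) or empty-vector replicate 1 (-0.60).

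DNA replication genes were lower, to an extent that turned on 1 array. Of 37 tested proliferation genes 11 fell, 0 rose and 26 did not pass (29.7% called, beside 9.74% of all genes), with a median of -0.44. Without doxycycline-treated empty-vector replicate 2 there were 4 falls and a median of -0.14, without empty-vector replicate 1 there were 17 and -0.65, and without induced replicate 2 there were 4 and -0.36. The median log2 intensity of the list was 8.79 and 8.59 on the induced ΔNP63α-V5 arrays, 9.07 and 9.67 on the doxycycline-treated empty-vector arrays, 8.91 and 8.94 on the uninduced ΔNP63α-V5 arrays and 9.33 and 9.20 on the untreated empty-vector arrays. Doxycycline-treated empty-vector replicate 2 was thus the highest of the 8 arrays. TYMS, thymidylate synthase, had 7.64 and 7.93 in induced cells, against 8.65 and 9.86 in empty-vector cells (-1.48 ± 0.28, adjusted p = 0.00842, and -0.87 without empty-vector replicate 2). MCM3, a subunit of the replicative helicase, had 10.22 and 9.90, against 11.05 and 11.60 in the empty-vector cells (-1.27 ± 0.18), and MCM6 fell by 1.11, or by 0.73 without empty-vector replicate 2. E2F2, a cell-cycle transcription factor, had 7.47 and 7.12, against 8.17 and 8.95 in the empty-vector cells (-1.26 ± 0.21, adjusted p = 0.00447). Called falls also included the spindle motor KIF11 (-0.68) and the centromere histone CENPA (-0.46). KIF11 was not called without induced replicate 1 (-0.69), induced replicate 2 (-0.67) or empty-vector replicate 2 (-0.51), and CENPA not without induced replicate 2 (-0.37), empty-vector replicate 1 (-0.52) or empty-vector replicate 2 (-0.40). Other genes used in mitosis, MKI67 (-0.12), CCNB1 (-0.05), PLK1 (-0.03), AURKA (-0.03) and CENPF (-0.72) among them, did not pass.

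Metabolic and transport genes included several of the largest rises. ABCA1, a membrane pump that exports cholesterol, had 8.87 and 8.79 in induced ΔNP63α-V5 cells, against 7.34 and 7.15 in doxycycline-treated empty-vector cells (1.58 ± 0.10, adjusted p = 1.26e-05). ABCG1, a second such pump, had 9.86 and 9.77, against 8.56 and 7.85 in the empty-vector cells (1.61 ± 0.18, adjusted p = 0.00034). Other ABCG1 probes read 1.43, 0.04 and -0.11. Sterol synthesis genes did not follow, since among 27 sterol and fatty acid genes the other calls were falls of DHCR7 (-0.63), SC5D (-0.50) and FADS1 (-0.47). None of these 3 was called without induced replicate 2 (-0.64, -0.49 and -0.47) or empty-vector replicate 2 (-0.52, -0.44 and -0.48), DHCR7 and FADS1 were also lost without induced replicate 1 (-0.63 and -0.48), and FADS1 without empty-vector replicate 1 (-0.46). NR1H3, which encodes a sterol-sensing receptor that drives both pumps, read 0.04, and the activity of the receptor was not tested.

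AKR1C2 and AKR1C3, ketosteroid reductases, rose by 1.52 ± 0.15 and 1.15 ± 0.12, with AKR1C2 at 10.28 and 10.14 in induced cells and 8.63 and 8.75 in empty-vector cells. They are close paralogs that a probe may not separate. They are counted among the targets of the oxidant sensor NRF2, whose activity was not tested. Of 20 such genes tested 3 rose and 3 fell, a called share of 30%, beside 9.74% of all genes. The number of falls turned on single arrays. The list median was -0.06, and lay between -0.11 and -0.02 when 1 doxycycline array was left out. TXNRD1, thioredoxin reductase, fell, with 10.49 and 10.53 in induced cells and 11.23 and 11.24 in empty-vector cells (-0.72 ± 0.10, adjusted p = 0.00111), and NQO1 fell by 0.52, although not without any one of induced replicate 1 (-0.45), induced replicate 2 (-0.58) and empty-vector replicate 2 (-0.36). SAT1, the enzyme that starts polyamine breakdown, had 10.77 and 11.15 in induced cells, against 9.44 and 9.07 in empty-vector cells (1.71 ± 0.15, adjusted p = 6.84e-05). SLC2A9, a urate transporter, rose by 1.57 ± 0.14, with a dim probe at 0.17.

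The remaining large differences fell in no list or in small families. LITAF, an endosomal protein first found as a gene induced by lipopolysaccharide, had 11.14 and 11.23 in induced ΔNP63α-V5 cells, against 9.56 and 9.38 in doxycycline-treated empty-vector cells (1.72 ± 0.14, adjusted p = 5.12e-05). APOD, apolipoprotein D, had 7.48 and 7.56, and was below background on both empty-vector arrays (5.83 and 5.93), which makes it at least 2.63-fold higher. It too passed the filter on background only through the induced arrays. SERINC2, a multi-pass membrane protein, had 8.57 and 8.47, against 6.69 and 6.51 in the empty-vector cells (1.92 ± 0.11), and SDC1, the proteoglycan syndecan-1, had 9.08 and 9.21, against 7.52 and 7.98 in the empty-vector cells (1.39 ± 0.15). In the S100 family S100P (1.37) and S100A11 (0.68) were higher, as S100A2 was, against the fall of S100A4, which sits in the same gene cluster as S100A2 and S100A11. S100P had 8.76 and 9.09 in induced cells and 8.65 and 8.70 in uninduced ΔNP63α-V5 cells, a difference of 0.26 that did not pass. It had 7.82 and 7.31 in doxycycline-treated empty-vector cells and 8.20 and 8.38 in untreated ones. BEX1, an adaptor of neural and stress signalling, fell by 2.05 ± 0.24 with a dim probe at -0.18, PARM1, a mucin-like membrane protein, by 1.98 ± 0.20, and DDAH1, which degrades an inhibitor of nitric oxide synthase, by 1.46 ± 0.13.

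**Figure D4:**
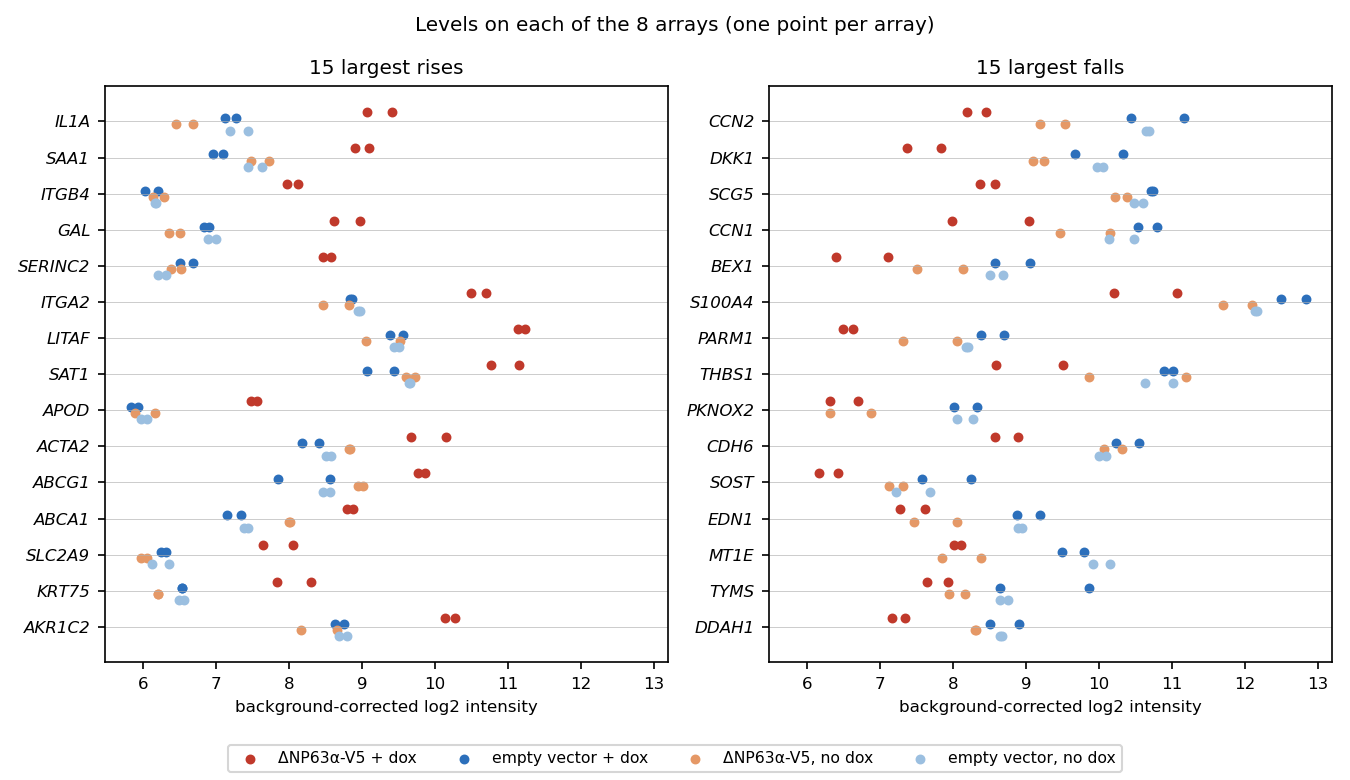
Background-corrected log2 intensity (horizontal axis) of the 15 largest rises (left) and falls (right) on each of the 8 arrays, with 1 point per array and the groups as in the legend. Both induced ΔNP63α-V5 arrays lie outside the range of the doxycycline-treated empty-vector arrays for every gene shown, which their choice on these arrays made likely. The uninduced ΔNP63α-V5 arrays also lie below all 4 empty-vector arrays for 11 of the 15 falls, but not for CCN1, THBS1, CDH6 or SOST. The 11 are BEX1, CCN2, DDAH1, DKK1, EDN1, MT1E, PARM1, PKNOX2, S100A4, SCG5 and TYMS. The uninduced arrays lie above all 4 for 3 of the 15 rises (ABCA1, ABCG1 and ACTA2), and not for the other rises. No share over all genes was computed for this order, and the doxycycline-treated empty-vector arrays also served to choose the genes.

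The same 2 lines were also compared without doxycycline. The arrays without the drug had no part in the size of the differences above, but shared in the filter, the choice of probe and the estimate of spread. Far fewer genes passed: 6 of 12385 (0.0484%) were lower in uninduced ΔNP63α-V5 cells than in untreated empty-vector cells, and none was higher. They were FEZ1, a neuronal transport adaptor (-2.04), the metal-binding MT1E (-1.92), the homeobox factor PKNOX2 (-1.57), the kinase PRKCH (-0.82), SERPINB5 (-0.71) and the LIM protein AJUBA (-0.70). The count was 0 without untreated empty-vector replicate 1 and 1 without replicate 2, with 981 and 932 genes at an unadjusted limma p under 0.05, against 1240 with all arrays. Even so, the direction before induction often matched: of the 1206 genes called with doxycycline 979 (81.2%) had the same sign without it, against 65.7% of all genes. Genes that were higher with doxycycline had a median difference of 0.52 with it and 0.15 without it, and those that were lower had -0.57 with it and -0.21 without it. Across all 12385 genes Pearson's r between the 2 differences was 0.488 and Spearman's rho 0.471, as a description over genes that are not independent.

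MT1E, PKNOX2, PRKCH and AJUBA were lower in the ΔNP63α-V5 line both with and without the drug. MT1E had 8.01 and 8.11 in induced ΔNP63α-V5 cells, against 9.49 and 9.80 in doxycycline-treated empty-vector cells. Without doxycycline MT1E had 8.39 and 7.85 in ΔNP63α-V5 cells, against 10.15 and 9.92 in empty-vector cells. PKNOX2 differed by -1.66 with doxycycline and -1.57 without it, PRKCH by -0.67 and -0.82, and AJUBA by -0.60 and -0.70. EDN1 (-1.59 with and -1.16 without), EGR1 (-1.30 and -0.94), IL6 (-0.76 and -0.81) and IER3 (-0.68 and -0.64) also read well below 0 without the drug, where none of the 4 passed. CCN2 read -1.30 without doxycycline (adjusted p = 0.0528), with 9.19 and 9.53 in uninduced ΔNP63α-V5 cells, against 10.68 and 10.64 in untreated empty-vector cells.

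**Figure D5:**
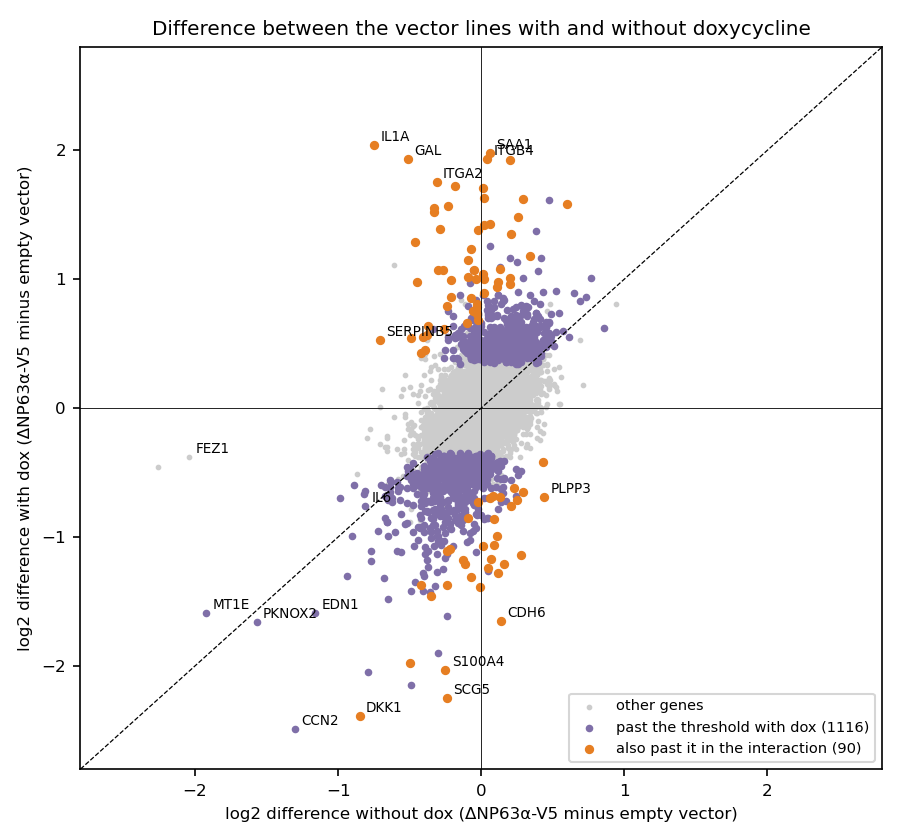
Log2 difference between the ΔNP63α-V5 and empty-vector lines with doxycycline (vertical axis) against that without it (horizontal axis), with 1 point per gene and a dashed line where both are equal. The 90 genes whose difference changed with doxycycline are orange, the other 1116 genes called with doxycycline are purple, and MT1E and PKNOX2 lie near the dashed line while IL1A, GAL and ITGB4 lie near or left of 0 without the drug.

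The change of the line difference with doxycycline was tested as an interaction. It passed for 90 genes (0.727%), 56 with a more positive and 34 with a more negative difference under the drug, and all 90 were also called with doxycycline, with which the interaction shares its 4 arrays. IL1A read 2.04 with the drug and -0.75 without it, GAL 1.93 and -0.51, ITGA2 1.75 and -0.31, SCG5 -2.25 and -0.24, and CDH6 -1.65 and 0.14. SERPINB5 was lower before induction (6.99 and 6.96 in uninduced ΔNP63α-V5 cells, against 7.69 and 7.69 in untreated empty-vector cells) and higher after it, an interaction of 1.24 ± 0.14 (adjusted p = 0.00124). The laminin receptor subunits ITGB4 (0.04) and ITGA3 (0.21) and the acute-phase gene SAA1 (0.06) did not pass without the drug. For CCN2 (-1.19 ± 0.28, adjusted p = 0.101), CCN1 (-1.66 ± 0.41, adjusted p = 0.125) and THBS1 (-1.60 ± 0.51, adjusted p = 0.302) the interaction did not pass. In the YAP and TEAD, proliferation, early-response and TGF-β lists it passed for 0 genes, beside 0.727% of all genes. The comparison of induced with uninduced ΔNP63α-V5 cells, which shares the induced arrays, passed for 338 genes (2.73%), and doxycycline alone in the empty-vector line passed for 0 genes in limma, with 543 at an unadjusted p under 0.05.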

How the data were processed

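RNA of 8 samples was hybridised to Illumina bead arrays. The authors deposited 1 intensity per probe and array on a linear scale, and the files do not say how it was normalised: the distributions nearly coincide between arrays, so no further normalisation was applied. A table with 16 columns (8 intensity, 8 detection) whose names match no sample label was not used.

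Intensities were background-corrected with normexp and an offset of 50 and put on the log2 scale. A probe was kept when its intensity exceeded 114.4, the mode of all values plus 1.645 SD of the values below it, on both arrays of at least 1 group, and the brightest kept probe stood for a gene. Names came from the platform table, which gave 1 symbol for 30105 probes, several for 8 and none for 17191. In limma 3.58.1 (R 4.3.3) a mean per group was fitted over all 8 arrays, and two-sided p-values were Benjamini-Hochberg adjusted over the 12385 genes, with 0.05 as the threshold. The procedure was tested on simulated data. No probe was named for TP63.

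Genes were named by a rule: the 15 largest rises and falls, up to 5 called members of each list, and the 6 largest in the interaction and uninduced comparisons. Other genes, among them all that did not pass and VIM, ANKRD1, EFEMP1, TNC, COL4A5, KIF11, CENPA, EREG, TGFA, FOSB, NFKBIB and SAA2, were chosen after their values were seen. The comparison and the lists were themselves chosen with earlier results of these data known. Alternatives changed the background correction, filter, moderation, probe choice, arrays fitted and replicate block, and left out each array. Promoter sequences came from RefSeq. Only 2 arrays per group limit the precision, and no counting depth applies.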

Additional observations from a re-analysis of the deposited data

Results flagged for a closer look

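The difference between the ΔNP63α-V5 and empty-vector lines with doxycycline differed from that without it for 90 genes, by limma's test of the interaction over all 12385 genes. The values here are the difference with doxycycline minus the difference without it, in log2 units, and they share the doxycycline arrays with the report's main comparison. Among cytokine, acute-phase and stress genes it was 2.79 for IL1A, 1.91 for SAA1, 1.91 for LITAF, 1.04 for SOD2 and 1.70 for SAT1. Adhesion, keratin and surface genes gave 1.89 for ITGB4, 2.06 for ITGA2, 1.14 for ITGA3, 1.87 for KRT75, 1.68 for SDC1, 1.72 for SERINC2 and 1.33 for ACTA2. Basal-cell and S100 genes gave 1.24 for SERPINB5, 1.75 for S100A2 and 0.70 for S100A11. Secreted, transport and metabolic genes and the Notch target HES1 gave 2.44 for GAL, 1.62 for APOD, 0.99 for ABCA1, 1.80 for SLC2A9, 1.85 for AKR1C2, 1.24 for AKR1C3 and 1.01 for HES1.

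More negative differences with doxycycline were found for the secreted proteins SCG5 (-2.02), DKK1 (-1.55), FSTL1 (-1.38), CCN4 (-1.24), NRG1 (-1.10) and COL3A1 (-0.87). Surface and intracellular genes with the same direction were CDH6 (-1.80), S100A4 (-1.78), PARM1 (-1.48), PRRX2 (-1.16), PLPP3 (-1.14), DDAH1 (-1.11), PDGFRB (-0.96) and DDR2 (-0.76).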

How the results depend on the processing

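The 1206 genes called with doxycycline numbered 699 in a fit restricted to the 4 arrays with doxycycline, and 387 to 1172 when 1 of the 8 arrays was left out. With the replicate number as a replicate block the count was 1665, and every one of the 1206 was among them. The labels do not say what the number marks, and deviations of same-numbered arrays correlated at 0.0403 to 0.432 between groups, so the block is given here alone. Without doxycycline the 6 calls became 3 with no background correction, 18 with an offset of 16, 11 with no filter, 20 with only 4 arrays fitted, 27 with the replicate block, 28 with an intensity trend and 0 to 9 when 1 array was left out. The 0 arose in limma without untreated empty-vector replicate 1, with 981 genes at an unadjusted p under 0.05, and no other tool was run. The interaction's 90 calls became 59 with no background correction, 155 with the replicate block and 33 to 99 when 1 array was left out. No named value changed sign where it was called. The causes of these changes were not tested, beyond the smaller number of arrays where arrays were left out.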

Other observations

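The interferon-response list, which includes genes of antigen presentation, had a called share of 12.2%, near the 9.74% over all genes. HLA-B and HLA-E, class I molecules that show peptides to T cells and natural killer cells, each rose by 0.67 in induced ΔNP63α-V5 cells over doxycycline-treated empty-vector cells. Neither was called without induced replicate 2 (0.69 for HLA-B, 0.57 for HLA-E) or empty-vector replicate 2 (0.51 and 0.60), and HLA-B was also lost without induced replicate 1 (0.66). Of 41 tested interferon-response genes 4 rose and 1 fell, with 0 rises without induced replicate 2 or doxycycline-treated empty-vector replicate 2. HLA genes are close paralogs that a probe may not separate. None of 4 tested class II genes passed.

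Proteases and their inhibitors gave 5 rises and 2 falls among 22 tested, with 0 of either without induced replicate 2 and 2 rises and 0 falls without empty-vector replicate 2. With all arrays 31.8% of the list were called, beside 9.74% of all genes. PLAT, the tissue plasminogen activator, rose by 0.79, and PLAU, the urokinase activator, fell by 0.72. Neither was called without induced replicate 2 (0.72 for PLAT, -0.46 for PLAU) or empty-vector replicate 2 (0.71 and -0.49). IGFBP2, a carrier of insulin-like growth factors, rose by 0.88, and was not called without induced replicate 2 (0.58) or empty-vector replicate 2 (0.79). The neuronal adaptor FEZ1, lower without doxycycline on its brightest probe, read -0.38 with it, and its other probes read 0.07, 0.88 and 0.75.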
